A study of Mus musculus with 17 samples.

Results

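Gatm, Gamt, Ass1, Asl, Arg2, Odc1, Oat, Glud1 and Glul encode 9 enzymes of arginine, creatine, ornithine, polyamine and glutamine metabolism, and their transcript levels were read in the kidney cortex of 4 groups of mice. They were picked by gene symbol and are 9 of the 48795 genes in the deposited table of read counts. The 17 cortex libraries were 5 of WT (wild type), 5 of GCERAd (labelled ATF4 KO), 3 of TRACK and 4 of GCERAdT (labelled TRACK-ATF4 KO). The labels number each library as a mouse of its own, but the study's methods give fewer mice per group than there are WT or GCERAd libraries, so n counts libraries and some of these may share a mouse. ATF4 is a transcription factor of the integrated stress response. In GCERAd mice a part of the Ggt1 promoter drives CreER, a recombinase that tamoxifen switches on, in the proximal tubules (PTs), and both Atf4 alleles are floxed, so that other cells of the cortex keep the gene. Per the study's methods these mice were given tamoxifen at 6 weeks of age on 2 days, and 1 month after the first injection they were fasted for 16 h. TRACK is a transgenic mouse model of kidney cancer. The strain, the age and tamoxifen schedule of the TRACK and GCERAdT mice, and whether WT and TRACK mice received tamoxifen, are not given in the sources used here.

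PTs are the main site in the body where citrulline from the gut is turned into arginine, by argininosuccinate synthase (Ass1) and argininosuccinate lyase (Asl) in turn. Arginine is then released to the blood, joined with glycine by Gatm in the first step of creatine synthesis (Gamt carries out the second), or split by the mitochondrial arginase Arg2 into urea and ornithine. Ornithine leads to polyamines through ornithine decarboxylase (Odc1) or to glutamate through ornithine aminotransferase (Oat), while glutamine synthetase (Glul) and glutamate dehydrogenase (Glud1) make and break down the amino acids from which the kidney produces ammonia.

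Total counts per cortex lay between 53688512 and 71364561, and levels are given as CPM (counts scaled to library size with TMM) or, between genes, as FPKM (counts scaled to library size and exon length). The libraries fell into 2 kinds by the share of counts on processed pseudogenes: 8 libraries (kind A) had 0.032% to 0.038% and 9 (kind B) had 0.0574% to 0.0784%. WT 2, GCERAd 3, 4 and 5, GCERAdT 3 and 4 and all 3 TRACK libraries were of kind B. Within GCERAd, libraries 4 and 5 stood apart from 1, 2 and 3 for several of the 9 genes, so the fold changes of the 9 genes in comparisons with GCERAd are given with and without them. GCERAd 2 and 3 may be repeat libraries, and no fit both summed them and left out 4 and 5. Fits without 4 and 5 count GCERAd 1, 2 and 3 as separate mice, and their p-values need this to be so. Libraries 4 and 5 were also chosen for leaving out by the levels of these same genes, which narrows the spread within GCERAd. The p-values of these fits may thus be too small and serve as description only. Transcripts of Ddx3y, Eif2s3y and Uty (Y chromosome) had 0 counts in all 5 WT libraries and were present in the other 12. Kdm5d (Y chromosome) had 0 counts in 4 WT libraries and 18 counts in the remaining 1 (0.308 CPM), against at least 8.81 CPM in the other groups, while Xist had 147 to 422 CPM in WT and at most 6.06 CPM elsewhere, so the sex of the mice and the group cannot be told apart in any comparison with WT. Atf4 itself was 84.8 ± 10.1 CPM (SD, n = 5) in WT, 64.6 ± 8.91 CPM in GCERAd (n = 5), 83.6 ± 8.54 CPM in TRACK (n = 3) and 93.3 ± 9.58 CPM in GCERAdT (n = 4). It fell in GCERAd against WT (log2 fold change -0.38, SE 0.11, adjusted p = 0.0218, edgeR), and this call was lost without WT 5 (adjusted p = 0.0559) or GCERAd 3 (adjusted p = 0.0527). It was not lower in the libraries labelled GCERAdT than in TRACK (log2 fold change 0.17, SE 0.11, adjusted p = 0.367), so the count of Atf4 does not check that label, and GCERAdT here means the libraries labelled so.

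Ranked by FPKM, Ass1 was the most abundant of the 9 transcripts in WT cortex at 593 ± 106 FPKM (SD, n = 5), apart from all others. Glul at 230.3 ± 14.3 FPKM and Gatm at 205 ± 22.6 FPKM followed and overlapped each other, and so did Oat at 148 ± 16.9 FPKM and Glud1 at 141 ± 3.79 FPKM. Below them came Odc1 at 63.1 ± 7.11 FPKM, then Asl at 46.3 ± 5.65 and Arg2 at 31.4 ± 8.92 FPKM, which overlapped, and Gamt was lowest at 13.0 ± 1.69 FPKM. The order differed in TRACK, where Glul stood first at 280.1 ± 61.9 FPKM (n = 3), overlapping Ass1 at 249 ± 21.4 FPKM, and Gatm was the sixth of the 9 genes at 37.1 ± 5.66 FPKM. In GCERAd, Arg2 was the lowest of the 9 at 7.79 ± 7.09 FPKM (n = 5), overlapping Gamt at 14.4 ± 4.55 FPKM.

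**Figure D1:**
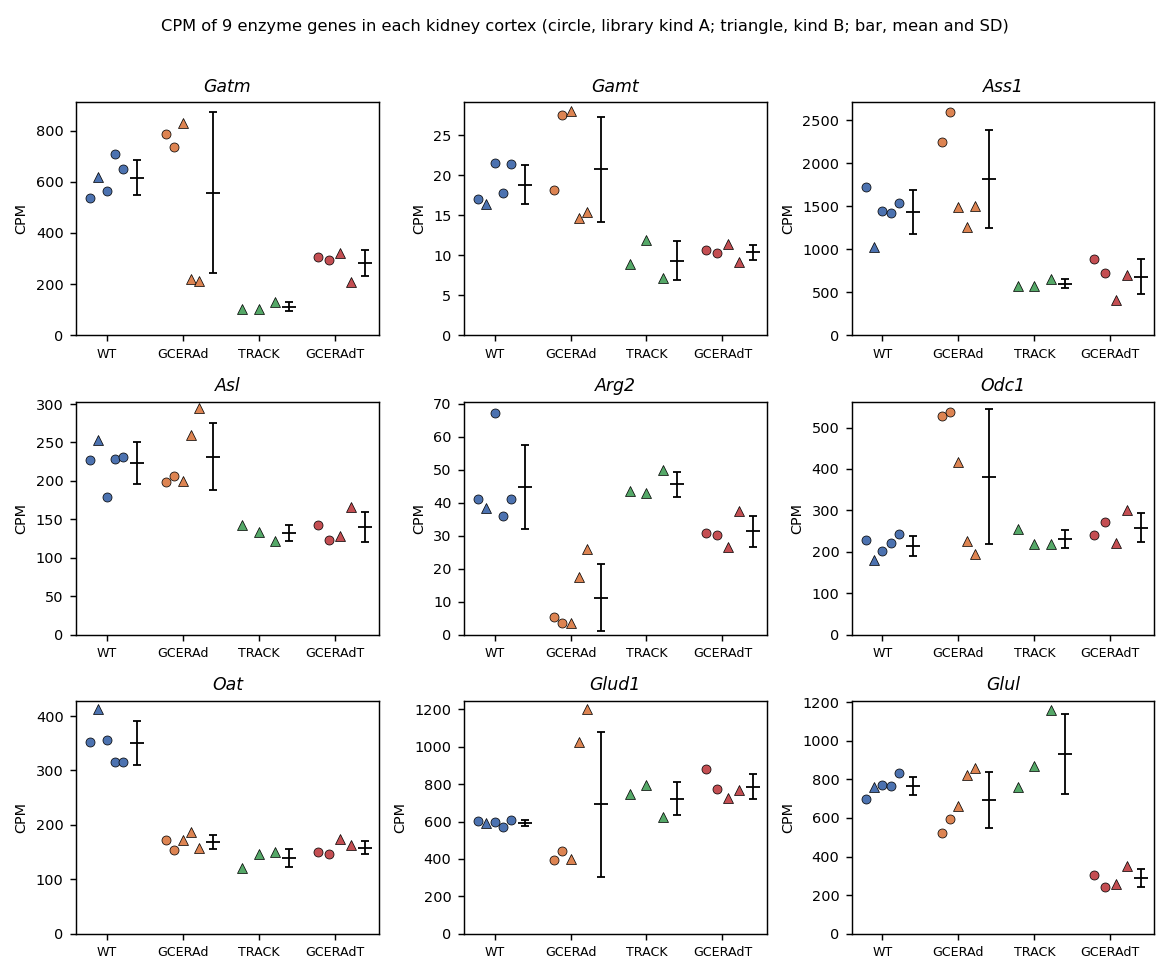
CPM (y axis, from 0) of each of the 9 genes in every cortex, by group (x axis). Circles are libraries of kind A and triangles of kind B, and the bar beside each group is the mean with its SD (n = 5, 5, 3 and 4). Oat in WT, Arg2 in GCERAd, Gatm in TRACK and Glul in GCERAdT lie apart from all other samples.

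Each group had 1 of the 9 genes at a level that no other sample reached. This gene was Oat in WT (higher, as for 7.68% of 12208 genes in either direction), Arg2 in GCERAd (lower; 3.67%), Gatm in TRACK (lower; 7%) and Glul in GCERAdT (lower; 2.34%). For the 3 of these whose promoters are in the RefSeq table used here, the bases upstream of the transcript are shown so that the motifs searched can be seen beside the genes whose levels set a group apart, with matches to CCAAT on either strand in capitals. The windows, on GRCm38.p6, are chr2:122611304-122611527 for Gatm (minus strand), chr7:132576399-132576648 for Oat (minus strand) and chr1:153899679-153899928 for Glul (plus strand), written 5′ to 3′ on the strand of the gene.
Gatm: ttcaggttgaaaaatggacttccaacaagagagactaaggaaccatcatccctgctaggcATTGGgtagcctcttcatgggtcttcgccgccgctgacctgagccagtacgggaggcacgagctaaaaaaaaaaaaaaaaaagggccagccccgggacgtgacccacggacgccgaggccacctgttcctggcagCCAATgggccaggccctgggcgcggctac
Oat: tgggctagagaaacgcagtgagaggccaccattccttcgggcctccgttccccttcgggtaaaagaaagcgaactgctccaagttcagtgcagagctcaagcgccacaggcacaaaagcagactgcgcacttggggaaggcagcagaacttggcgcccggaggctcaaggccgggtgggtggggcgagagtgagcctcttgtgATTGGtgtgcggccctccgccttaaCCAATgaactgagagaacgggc
Glul: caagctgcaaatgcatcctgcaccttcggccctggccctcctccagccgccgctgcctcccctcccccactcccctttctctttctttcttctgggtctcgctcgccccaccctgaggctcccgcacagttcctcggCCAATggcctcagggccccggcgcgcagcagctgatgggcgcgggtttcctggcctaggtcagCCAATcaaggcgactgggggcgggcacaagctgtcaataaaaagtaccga

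Promoters of 7 of the 9 genes (all but Arg2 and Asl) were in that table, as the 250 bases before and 50 after the start. Letters of the C/EBP-ATF core TGATGNAA, on either strand, were found in 0 of the 7, against 3.97% of all 32851 promoters. The other motifs were chosen after the promoters had been read. CCAAT was found in 3 of the 7 (Gatm, Glul and Oat, each with 2 matches), and 37.4% of all promoters had any match. For so few promoters, 3 of 7 is near that share. The E-box CACGTG was found in Ass1 alone (7.15% of all), and neither the TATA box TATAAA (13.6%) nor the cyclic AMP response element TGACGTCA (1.79%) was found in any of the 7. These are matches of letters in a window and do not show binding.

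GCERAd against WT compares cortices labelled ATF4 KO with wild type. The deletion cannot be told apart here from the sex of the mice or from the CreER transgene. Arg2 and Oat fell and Odc1 rose, while Gatm, Gamt, Ass1, Asl, Glud1 and Glul did not pass the test. These 3 calls of 9 stand against 27.6% of the 11581 genes tested in this comparison (14.1% higher and 13.5% lower). The median log2 fold change of the 9 genes was 0.061 and that of all genes tested was -0.00051. Groups did not overlap for 2 of the 9 (Arg2 and Oat), against 20.2% of genes tested. Without GCERAd 4 and 5, 7 of the 9 passed (all but Gamt and Asl) where 30.9% of genes did. The summed level of 8 PT markers, all detected, was 11536 to 14483 CPM in GCERAd and 9022 to 10992 CPM in WT, and 3 of the 8 were called, all higher. All 4 markers of the thick ascending limb and 4 of 6 of the collecting duct were called lower. Of 2 markers of injured PTs, 1 was called higher and 1 lower. The part of these cell types in the result was not tested, and fewer cells of a type and less RNA per cell cannot be told apart in bulk cortex.

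GCERAdT against TRACK compares the libraries labelled ATF4 KO on the TRACK background with TRACK. Gatm rose, and Glul and Arg2 fell, so that 3 of 9 passed the test where 7.09% of 11928 genes did (2.81% higher and 4.28% lower). The median log2 fold change was 0.16 for the 9 genes and 0.014 for all genes tested. The groups did not overlap for the same 3 genes, against 23.1% of genes tested. All libraries of this comparison carried counts of the Y-linked transcripts.

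TRACK against WT compares the cancer model with wild type. Gatm, Gamt, Ass1, Asl and Oat fell and Glud1 rose, which is 6 of 9 where 45.6% of 11967 genes passed the test (23% higher and 22.6% lower). The groups did not overlap for these 6, nor for 44.3% of genes tested. The median log2 fold change of the 9 genes was -0.75, and that of all genes tested was -0.010. The 8 PT markers summed to 7082 to 8588 CPM in TRACK, below WT, and 4 of the 8 were called, 3 lower and 1 higher. The sum of 2 markers of injured PTs was 17.9 to 47.4 CPM in TRACK and 1.65 to 3.92 CPM in WT. All 4 endothelial markers were called higher (345 to 394 CPM in sum against 197 to 230.1 CPM), all 3 of the distal convoluted tubule lower (408 to 619 CPM against 835 to 1211 CPM), and 3 of 4 of the thick ascending limb and 5 of 6 of the collecting duct lower. Their part in the result was not tested.

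GCERAdT against GCERAd compares the 2 groups labelled ATF4 KO. Gamt, Ass1, Asl and Glul fell and the other 5 did not pass (6 of the 9 had an unadjusted p under 0.05, and DESeq2 called the same 4), which is 4 of 9 where 19.2% of 11816 genes passed (9.39% higher and 9.79% lower). Groups did not overlap for 5 of the 9, these 4 and Arg2, against 19.3% of genes tested. With the mouse number as a block, since same-numbered mice of these groups deviated together, 6 of 9 passed where 31.9% of genes did: Gatm also fell (log2 fold change -1.05, SE 0.22, adjusted p = 0.0135, edgeR) and Arg2 also rose (2.38, SE 0.33, adjusted p = 0.00327). Same-numbered libraries of these 2 groups were also of the same kind (1 and 2 of kind A, 3 and 4 of kind B). Mouse number and library kind thus cannot be fully told apart in this block. The PT markers summed to 6997 to 8258 CPM in GCERAdT and 11536 to 14483 CPM in GCERAd, and the PT injury markers to 29.7 to 38.4 CPM against 1.96 to 9.07 CPM, and all 4 endothelial markers were called higher. Their part in the result was not tested.

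The comparisons share samples (WT, TRACK, GCERAd and GCERAdT each enter 2 of the 4), so their values are given side by side and not counted as separate evidence. A test of the difference between the effects labelled ATF4 KO on the 2 backgrounds, GCERAdT against TRACK minus GCERAd against WT, used all 17 samples and passed for 3 of 9 genes (25.1% of 12208 genes, 12.3% higher and 12.8% lower): Gatm, Oat and Glul. Arg2, Odc1 and Glud1 did not pass it, nor did Gamt, Ass1 and Asl. Since Y-linked transcripts were at or near 0 in WT alone, the sex of the mice cannot be told apart from the group in this difference either.

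**Figure D2:**
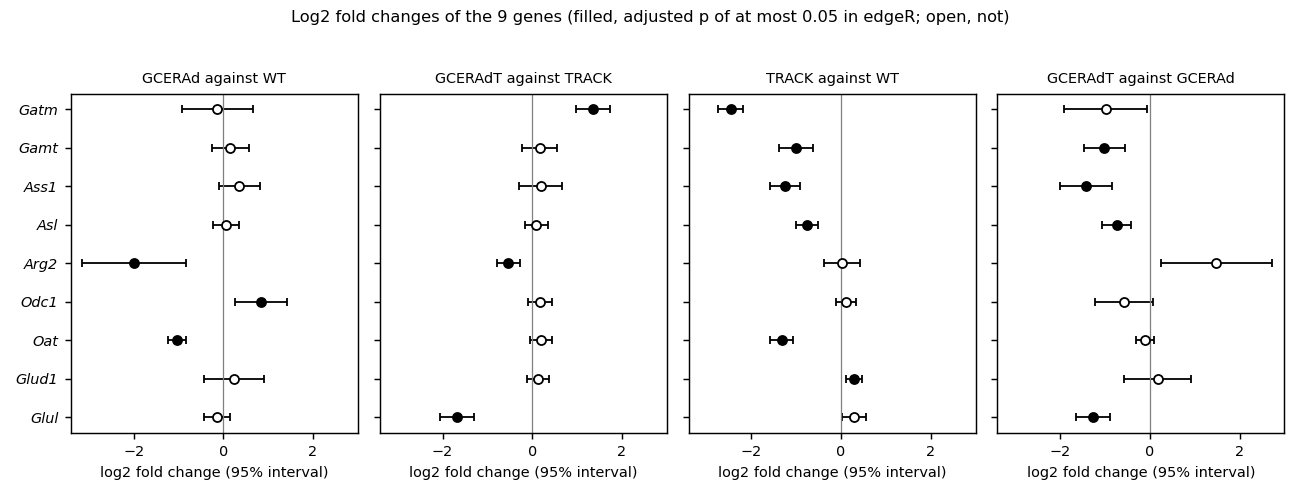
Log2 fold change (x axis) of each gene (y axis) with its 95% interval in the 4 comparisons, from edgeR. Filled points passed an adjusted p of at most 0.05: 3 of 9 in GCERAd against WT, 3 in GCERAdT against TRACK, 6 in TRACK against WT and 4 in GCERAdT against GCERAd.

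Ass1 (chr2:31470207-31520672, plus strand), the enzyme that joins citrulline and aspartate, had 1722, 1028, 1445, 1424 and 1543 CPM in WT 1 to 5 and 2247, 2600, 1491, 1258 and 1507 CPM in GCERAd 1 to 5. The groups overlapped, with GCERAd 1 and 2 above every WT cortex and the other GCERAd libraries among them (log2 fold change 0.36, 95% interval -0.089 to 0.81, adjusted p = 0.218, edgeR). In TRACK it had 569, 574 and 661 CPM and in GCERAdT 891, 726, 410.3 and 706 CPM, and all 7 lay below all 10 cortices of WT and GCERAd. Ass1 fell by 1.25 on the log2 scale in TRACK against WT (SE 0.15, adjusted p = 0.000135) and by 1.43 in GCERAdT against GCERAd (SE 0.26, adjusted p = 0.00452).

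Ass1 was also the only one of the 9 genes whose level differed between the library kinds in a fit of group and kind, in which 21.7% of 12208 genes did (10.6% higher in kind B and 11.1% lower). It was lower in kind B by 0.64 on the log2 scale (SE 0.11, adjusted p = 0.00061, edgeR), or 0.641 times the level of kind A. With the library kind as a covariate, Ass1 rose in GCERAd against WT (log2 fold change 0.60, SE 0.099, adjusted p = 0.0012), and it did so without GCERAd 4 and 5 (0.58, SE 0.18, adjusted p = 0.0361). The fall in TRACK against WT was 0.77 on the log2 scale with that covariate (log2 fold change -0.77, SE 0.13, adjusted p = 0.0044), and all TRACK libraries were of kind B. The difference between the effects on the 2 backgrounds was -0.16 (SE 0.33, adjusted p = 0.752, edgeR), and it passed with the covariate (-0.73, SE 0.22, adjusted p = 0.024). It was -0.39 without GCERAd 4 and 5 (SE 0.31, adjusted p = 0.403), and GCERAdT against GCERAd was then -1.62 (SE 0.25, adjusted p = 0.00113).

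Asl (chr5:130011258-130029247, minus strand), which splits argininosuccinate into arginine and fumarate, had 227, 253, 179, 229 and 231 CPM in WT and 198, 206, 199.6, 259 and 294 CPM in GCERAd. The groups overlapped throughout, with a log2 fold change of 0.061 (95% interval -0.22 to 0.34). TRACK cortices had 142, 134 and 122 CPM and GCERAdT cortices 142, 123, 129 and 166 CPM, again all below WT and GCERAd and overlapping each other. Asl fell by 0.75 on the log2 scale in TRACK against WT (SE 0.11, adjusted p = 0.000466, edgeR) and by 0.74 in GCERAdT against GCERAd (SE 0.15, adjusted p = 0.00609), a call lost within kind B (adjusted p = 0.0939). The latter was -0.52 without GCERAd 4 and 5 (SE 0.11, adjusted p = 0.00622), and GCERAd against WT was then -0.14 (SE 0.10, adjusted p = 0.339). For Asl the difference between the effects on the 2 backgrounds was 0.030 with all libraries and 0.22 (SE 0.16, adjusted p = 0.342) without GCERAd 4 and 5.

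Gatm (chr2:122594467-122611303, minus strand), which transfers the amidino group of arginine to glycine, had 537, 619.9, 565, 708 and 651 CPM in WT. GCERAd libraries 1, 2 and 3 had 789, 735 and 832 CPM, above every WT cortex, while libraries 4 and 5 had 219.8 and 211 CPM, below every WT cortex. Over all 5 the log2 fold change was -0.13 with a 95% interval of -0.93 to 0.67, and without libraries 4 and 5 Gatm rose (0.37, SE 0.097, adjusted p = 0.0156, edgeR). TRACK cortices had 102, 102 and 131 CPM, the lowest of all samples, and GCERAdT cortices had 306, 296, 323 and 207 CPM, which spanned the values of GCERAd 4 and 5.

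Gatm fell by 2.47 on the log2 scale in TRACK against WT (SE 0.13, adjusted p = 8.56e-07), to 0.181 times the WT level. It rose 2.56-fold in GCERAdT against TRACK (log2 fold change 1.35, SE 0.17, adjusted p = 0.00237), with all 4 GCERAdT cortices above all 3 TRACK cortices, and just missed the threshold with all 17 samples in 1 fit (adjusted p = 0.0503, edgeR). GCERAdT against GCERAd gave -0.99 (SE 0.42, adjusted p = 0.13), which passed without GCERAd 4 (adjusted p = 0.0463) or without GCERAd 5 (adjusted p = 0.0401), and was -1.47 (SE 0.14, adjusted p = 6.44e-05) without both. The difference between the effects on the 2 backgrounds was 1.49 (SE 0.50, adjusted p = 0.038) and failed the threshold in 9 of the 17 fits that left out 1 library, up to an adjusted p of 0.0913, and with the library kind as a covariate (1.19, adjusted p = 0.109). Leaving out GCERAd 4 and 5 gave 0.98 (SE 0.20, adjusted p = 0.00204).

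Gamt (chr10:80258151-80261012, minus strand), which methylates guanidinoacetate to creatine, had 17.0, 16.4, 21.5, 17.8 and 21.4 CPM in WT. GCERAd again split, with 18.2, 27.6 and 28.0 CPM in libraries 1 to 3 and 14.6 and 15.4 CPM in libraries 4 and 5, and overlapped WT (log2 fold change 0.15, 95% interval -0.26 to 0.57). TRACK had 8.92, 12.0 and 7.11 CPM and GCERAdT 10.7, 10.3, 11.3 and 9.12 CPM, all below WT and GCERAd. Gamt fell by 1.01 on the log2 scale both in TRACK against WT (SE 0.17, adjusted p = 0.00102, edgeR) and in GCERAdT against GCERAd (SE 0.21, adjusted p = 0.00781). Within kind B, which holds 1 WT library and all of TRACK, the calls were lost (-0.81, adjusted p = 0.121, and -0.93, adjusted p = 0.168). With GCERAd 4 and 5 left out, GCERAd against WT gave 0.40 (SE 0.15, adjusted p = 0.0656), GCERAdT against GCERAd -1.24 (SE 0.15, adjusted p = 0.000307) and the difference between the effects on the 2 backgrounds -0.24 (SE 0.24, adjusted p = 0.509), where that difference was 0.013 with all libraries.

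Arg2 (chr12:79130777-79156301, plus strand) had 41.1, 38.5, 67.3, 36.0 and 41.2 CPM in WT. In GCERAd it had 5.36, 3.43 and 3.52 CPM in libraries 1 to 3 and 17.3 and 26.0 CPM in libraries 4 and 5, so that all 5 lay below every WT cortex. Arg2 fell by 2.00 on the log2 scale, to 0.25 times the WT level (SE 0.53, adjusted p = 0.0159, edgeR), and without libraries 4 and 5 the log2 fold change was -3.43 (SE 0.25, adjusted p = 4.8e-06). Within library kind A it was -3.39 (SE 0.31, adjusted p = 0.000114) and within kind B, which holds 1 WT library, -1.29 (SE 0.89, adjusted p = 0.555).

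TRACK cortices had 43.5, 43.0 and 50.0 CPM of Arg2, among the WT values (log2 fold change 0.024, 95% interval -0.38 to 0.43). GCERAdT cortices had 30.8, 30.3, 26.5 and 37.5 CPM, below all TRACK cortices and above all GCERAd cortices. Arg2 fell by 0.53 on the log2 scale in GCERAdT against TRACK (SE 0.12, adjusted p = 0.0268, edgeR), a call that failed in 6 of the 7 fits that left out 1 library (adjusted p up to 0.0831), with the library kind as a covariate (adjusted p = 0.102) and with all 17 samples in 1 fit (adjusted p = 0.55). The difference between the effects on the 2 backgrounds was 1.47 (SE 0.68, adjusted p = 0.124), and it passed without GCERAd 4 and 5 (2.90, SE 0.29, adjusted p = 4.81e-06). GCERAdT against GCERAd gave 1.48 (SE 0.56, adjusted p = 0.0929), which passed with all 17 samples in 1 fit (adjusted p = 0.0238) or with the library kind as a covariate (adjusted p = 0.0326), and 2.93 (SE 0.19, adjusted p = 5.34e-06) without GCERAd 4 and 5. Arg2 shares 285 exonic bases with Vti1b and 116 with the antisense gene Gm48780, both on the opposite strand, and since the strand setting of the counting is not given, reads there cannot be assigned.

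Odc1 (chr12:17544794-17551505, plus strand), the first enzyme of polyamine synthesis, had 228, 180.1, 203, 221 and 243 CPM in WT. GCERAd libraries 1 to 3 had 529, 538 and 417 CPM, all above WT, and libraries 4 and 5 had 226 and 195 CPM, among the WT values. Odc1 rose with a log2 fold change of 0.84 (SE 0.26, adjusted p = 0.0331, edgeR), but the call failed in 8 of the 10 fits that left out 1 library, with an adjusted p of up to 0.0769, and where possible repeat libraries were summed (adjusted p = 0.11). It was 1.22 (SE 0.11, adjusted p = 2.29e-05) without GCERAd 4 and 5, 1.27 (SE 0.081, adjusted p = 1.69e-05) within kind A and 0.65 (SE 0.47, adjusted p = 0.57) within kind B.

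In TRACK, Odc1 had 255, 219 and 218 CPM and in GCERAdT 240.1, 273, 221 and 299.9 CPM, both overlapping WT. GCERAdT against TRACK gave a log2 fold change of 0.17 (95% interval -0.089 to 0.43) and TRACK against WT 0.10 (95% interval -0.12 to 0.33). GCERAdT against GCERAd gave -0.57 (SE 0.29, adjusted p = 0.204, edgeR), and -0.93 (SE 0.13, adjusted p = 0.00056) without GCERAd 4 and 5. The difference between the effects on the 2 backgrounds was -0.66 (SE 0.35, adjusted p = 0.178), and -1.0 (SE 0.32, adjusted p = 0.0371) with the library kind as a covariate or -1.05 (SE 0.17, adjusted p = 0.000382) without GCERAd 4 and 5.

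Oat (chr7:132557478-132576398, minus strand), the mitochondrial enzyme that moves an amino group from ornithine to 2-oxoglutarate, had 352, 413, 355, 316 and 316 CPM in WT. All 5 GCERAd cortices were lower and close together, at 173, 153, 173, 186 and 158 CPM, with no split between libraries 1 to 3 and 4 and 5. TRACK at 120.4, 147 and 151 CPM and GCERAdT at 149, 147, 173 and 163 CPM overlapped each other, and GCERAdT overlapped GCERAd. Oat fell by 1.04 on the log2 scale in GCERAd against WT (SE 0.090, adjusted p = 1.07e-05, edgeR), to 0.486 times the WT level, and by 1.33 in TRACK against WT (SE 0.11, adjusted p = 1.73e-05).

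The fall of Oat in GCERAd held in every fit that left out 1 library (log2 fold change -1.08 to -0.97) and within each library kind (-1.02, SE 0.090, in kind A and -1.25, SE 0.15, in kind B). GCERAdT against TRACK gave 0.19 (95% interval -0.049 to 0.43) and GCERAdT against GCERAd gave -0.11 (95% interval -0.30 to 0.087). The difference between the effects on the 2 backgrounds was 1.24 (SE 0.14, adjusted p = 1.16e-05, edgeR). These values without GCERAd 4 and 5 were -0.071 for GCERAdT against GCERAd, -1.06 (adjusted p = 3.45e-05) for GCERAd against WT and 1.25 (adjusted p = 2.68e-05) for the difference. The 5 WT cortices, the only ones with Y-linked transcripts at or near 0, were also the 5 highest for Oat, and the highest of the other 12 had 186 CPM.

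Glud1 (chr14:34310727-34345265, plus strand), which turns glutamate into 2-oxoglutarate and ammonium, had 605, 593, 595, 568 and 609 CPM in WT, the narrowest spread of the 9 genes relative to its mean. GCERAd libraries 1 to 3 had 393, 442 and 399 CPM, all below WT, while libraries 4 and 5 had 1025 and 1199.7 CPM, above every other cortex. Over all 5 the log2 fold change was 0.23 with a 95% interval of -0.43 to 0.90. Without libraries 4 and 5 Glud1 fell (-0.51, SE 0.068, adjusted p = 0.00027, edgeR), so the direction rests on those libraries.

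TRACK cortices had 748, 796 and 624 CPM of Glud1 and GCERAdT cortices 879.9, 772, 726 and 767 CPM, all above WT and overlapping each other. Glud1 rose by 0.28 on the log2 scale in TRACK against WT (SE 0.082, adjusted p = 0.0169, edgeR), a call lost without TRACK 1 (adjusted p = 0.0685) or TRACK 2 (adjusted p = 0.0955), with the library kind as a covariate (adjusted p = 0.148) and with all 17 samples in 1 fit (adjusted p = 0.46). GCERAdT against TRACK gave 0.13 (95% interval -0.11 to 0.37) and GCERAdT against GCERAd 0.17 (95% interval -0.58 to 0.92), or 0.94 (SE 0.092, adjusted p = 7.25e-05) without GCERAd 4 and 5. For Glud1 the difference between the effects on the 2 backgrounds was -0.096 (SE 0.40, adjusted p = 0.88), and 0.64 (SE 0.12, adjusted p = 0.00125) without those libraries.

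Glul (chr1:153899944-153909723, plus strand), which makes glutamine from glutamate and ammonium, had 697, 761, 772, 766 and 830.0 CPM in WT and 520, 594, 661, 821 and 857 CPM in GCERAd. GCERAd 1 to 3 lay below WT and GCERAd 4 and 5 among or above WT, and the log2 fold change was -0.14 (95% interval -0.42 to 0.15), or -0.36 (SE 0.092, adjusted p = 0.0139, edgeR) without libraries 4 and 5. TRACK had 762, 870.4 and 1159.8 CPM, overlapping WT (0.28, SE 0.12, adjusted p = 0.0796), and this difference was past the threshold without TRACK 1 (adjusted p = 0.0228, edgeR) and by DESeq2 (adjusted p = 0.0377). GCERAdT had 304, 243, 259.7 and 349.9 CPM, less than any cortex of the other 3 groups.

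Glul fell by 1.68 on the log2 scale in GCERAdT against TRACK, to 0.312 times the TRACK level (SE 0.17, adjusted p = 0.000751, edgeR), and by 1.27 in GCERAdT against GCERAd (SE 0.17, adjusted p = 0.000804). Within kind B, the only kind with TRACK libraries, the former was -1.60 (SE 0.22, adjusted p = 0.0212). The difference between the effects on the 2 backgrounds was -1.54 (SE 0.22, adjusted p = 0.000143), and it passed in every fit that left out 1 library (adjusted p of at most 0.000537). This difference was -1.33 without GCERAd 4 and 5 (SE 0.20, adjusted p = 0.000183), and GCERAdT against GCERAd was then -1.03 (SE 0.14, adjusted p = 0.000494). The summed PT markers overlapped between GCERAdT (6997 to 8258 CPM) and TRACK (7082 to 8588 CPM), with 1 of 8 called, lower. Of the 2 markers of injured PTs, 1 was called higher and 1 lower. In the thick ascending limb 1 of 4 markers and in the distal convoluted tubule 1 of 3 were called higher. The part of these cell types in the fall of Glul was not tested. Glul shares 116 exonic bases with Teddm2 on the opposite strand, and the strand setting of the counting is not given. It shares 93 with the miRNA gene Mir8114 on its own strand, where reads cannot be assigned by strand.

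**Figure D3:**
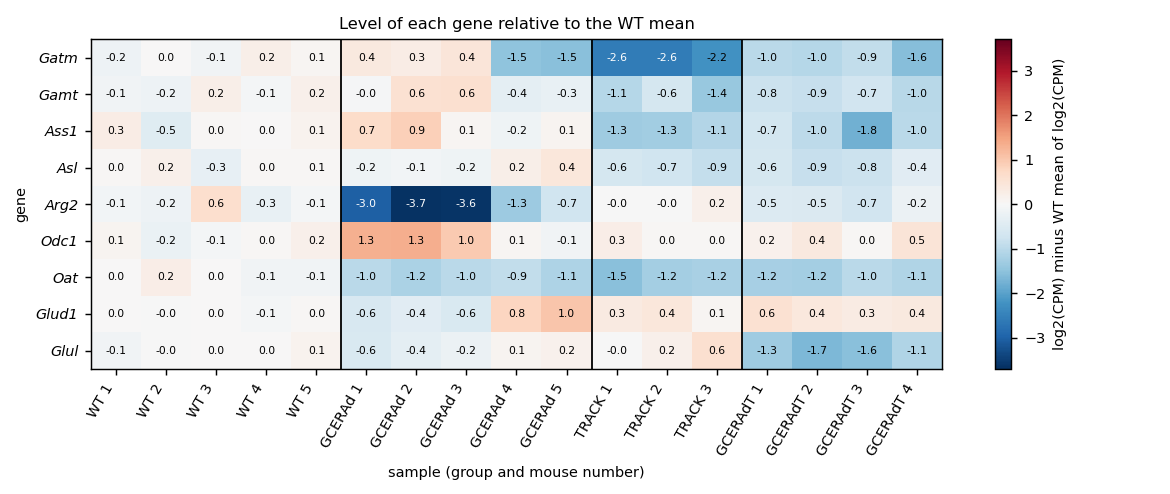
Log2 of the CPM of each gene (rows) in each cortex (columns) minus the WT mean of log2 CPM, as colour and number. GCERAd 1 to 3 and GCERAd 4 and 5 take opposite signs for Gatm, Glud1, Asl and Glul. Oat is lower in all 12 cortices outside WT, and Glul is lowest in the 4 GCERAdT cortices.

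The 9 genes together took 0.426% ± 0.0235 of all counts in WT (SD, n = 5), 0.443% ± 0.0543 in GCERAd (n = 5), 0.296% ± 0.0263 in TRACK (n = 3) and 0.273% ± 0.0332 in GCERAdT (n = 4). GCERAd and WT did not differ beyond their spread in a two-sided exact permutation test over samples (p = 0.54). For GCERAdT and TRACK the exact permutation p was 0.343, where these group sizes allow no p below 0.0571, so that test could not pass 0.05. The share was lower in TRACK than in WT (exact permutation p = 0.0357) and lower in GCERAdT than in GCERAd (exact permutation p = 0.0159), each the smallest p these group sizes allow. These p-values count every library as a separate mouse and hold only if this is so. With fewer mice the smallest p allowed would be larger. From WT to TRACK, mean CPM fell furthest for Ass1 (1433 to 602) and Gatm (616 to 111). Glul, Glud1, Odc1 and Arg2 had higher means in TRACK than in WT. Ass1 was lower in kind B, the kind of all TRACK libraries. WT 2, the only WT library of kind B, had the lowest WT share (0.390%). The part of the library kind in the share was not tested.

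As a description over the 17 samples, the profile of each gene was set beside 13275 genes by the root mean square difference of centred log2(CPM + 1) values. The nearest were Abhd14a (0.32) and Tbxas1 (0.34) for Gatm, Capg (0.33) and Abcb1b (0.47) for Arg2, and Tnfrsf21 (0.26) and Sgk2 (0.34) for Glul, where the genes' own deviations were 1.01, 1.17 and 0.65. Prss12 (0.16) and Lyplal1 (0.18) were nearest to Oat, Ppt2 (0.21) and Trabd2b (0.22) to Odc1, and Eif4b (0.20) and Acot6 (0.21) to Glud1. Kmo (0.14) and Tmem106a (0.16) were nearest to Asl, Slc26a1 (0.26) and Susd2 (0.27) to Ass1, and Cyp2j11 (0.19) and Rhov (0.21) to Gamt. Among the 9 genes themselves, the closest pairs were Gamt with Asl (0.40) and Gamt with Ass1 (0.43).

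Other genes of the same pathways were read as 4 lists. Beside the counts below, 27.6% of all genes tested passed in GCERAd against WT (30.9% without GCERAd 4 and 5). The share was 7.09% in GCERAdT against TRACK, 45.6% in TRACK against WT and 19.2% in GCERAdT against GCERAd. Groups did not overlap for 20.2% of genes in GCERAd against WT and 23.1% in GCERAdT against TRACK. Of 14 other genes of the urea cycle, arginine and nitric oxide, 8 were tested in GCERAd against WT, and Arg1, Nags, Cps1, Otc, Nos1 and Nos2 were below the minimum level. Ddah1 (log2 fold change 0.59) and Ddah2 (-0.71), which break down methylated arginines, and Agxt2 (0.86), an aminotransferase that also acts on these, passed the test, and the other 5 did not. Without GCERAd 4 and 5 these 3 also passed (0.45, -0.83 and 0.91 in the same order). Agxt2 had 106 ± 8.13 CPM in GCERAd and 58.7 ± 4.67 CPM in WT (n = 5 each), and it also rose in GCERAdT against TRACK (70.8 ± 4.98 CPM, n = 4, and 56.1 ± 1.39 CPM, n = 3, log2 fold change 0.35, adjusted p = 0.0406, edgeR), with no overlap either time. Ddah2 did not overlap in either comparison, but its log2 fold change of -0.20 in GCERAdT against TRACK did not pass (adjusted p = 0.21). In this list 2 of 7 tested genes passed in GCERAdT against TRACK, both higher, and 4 of 8 passed in TRACK against WT, 2 in each direction. The list's median log2 fold change was -0.025 in GCERAd against WT and 0.094 in GCERAdT against TRACK, beside -0.00051 and 0.014 for all genes tested.

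Of 13 other polyamine genes, 1 passed in GCERAd against WT, the antizyme inhibitor Azin1 (0.31, adjusted p = 0.0258, edgeR, and 0.24, adjusted p = 0.0842, without GCERAd 4 and 5), and 0 passed in GCERAdT against TRACK with edgeR, where 3 had an unadjusted p under 0.05 and DESeq2 called 3. Their median log2 fold change was -0.092 in GCERAd against WT and 0.12 in GCERAdT against TRACK. In TRACK against WT, 2 rose and 4 fell. Of 5 other creatine genes 3 were tested, and the creatine kinases Ckb (-0.96, adjusted p = 0.0016) and Ckmt1 (-0.52, adjusted p = 0.0026) fell in GCERAd against WT, also without GCERAd 4 and 5 (-0.76, adjusted p = 0.00332, and -0.39, adjusted p = 0.00276). Both also fell in TRACK against WT, as did the third gene tested, the creatine transporter Slc6a8, and 0 of the 3 passed in GCERAdT against TRACK with edgeR, at an unadjusted p under 0.05 or with DESeq2 (median log2 fold change -0.52 in GCERAd against WT and 0.085 in GCERAdT against TRACK). Markers of the collecting duct (6 genes, all detected) summed to 1011 to 1155 CPM in WT and at most 704 CPM in the other groups, and those of the thick ascending limb (4 genes, all detected) to 5429 to 8168 CPM in WT and 3542 to 4756 CPM in GCERAd, and their part in these falls was not tested.

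Of 21 other glutamine, glutamate and proline genes 20 were in the table. In GCERAd against WT 4 of 15 tested passed, 2 lower, among them Prodh2 (-0.77), which breaks down hydroxyproline, and 2 higher, the glutathione synthesis genes Gclm (0.35) and Gclc (0.31). Without GCERAd 4 and 5, 7 of the 15 passed, with Prodh2 at -0.94, Gclm at 0.30 and Gclc at 0.44. Prodh2 rose in GCERAdT against TRACK (53 ± 4.15 CPM, n = 4, and 39.8 ± 5.50 CPM, n = 3, log2 fold change 0.42, adjusted p = 0.0471, edgeR), without overlap. The list's median log2 fold change was -0.085 in GCERAd against WT and -0.044 in GCERAdT against TRACK. In TRACK against WT 14 of 17 passed, 8 higher and 6 lower, and in GCERAdT against GCERAd 9 of 17, 5 higher and 4 lower.

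**Figure D4:**
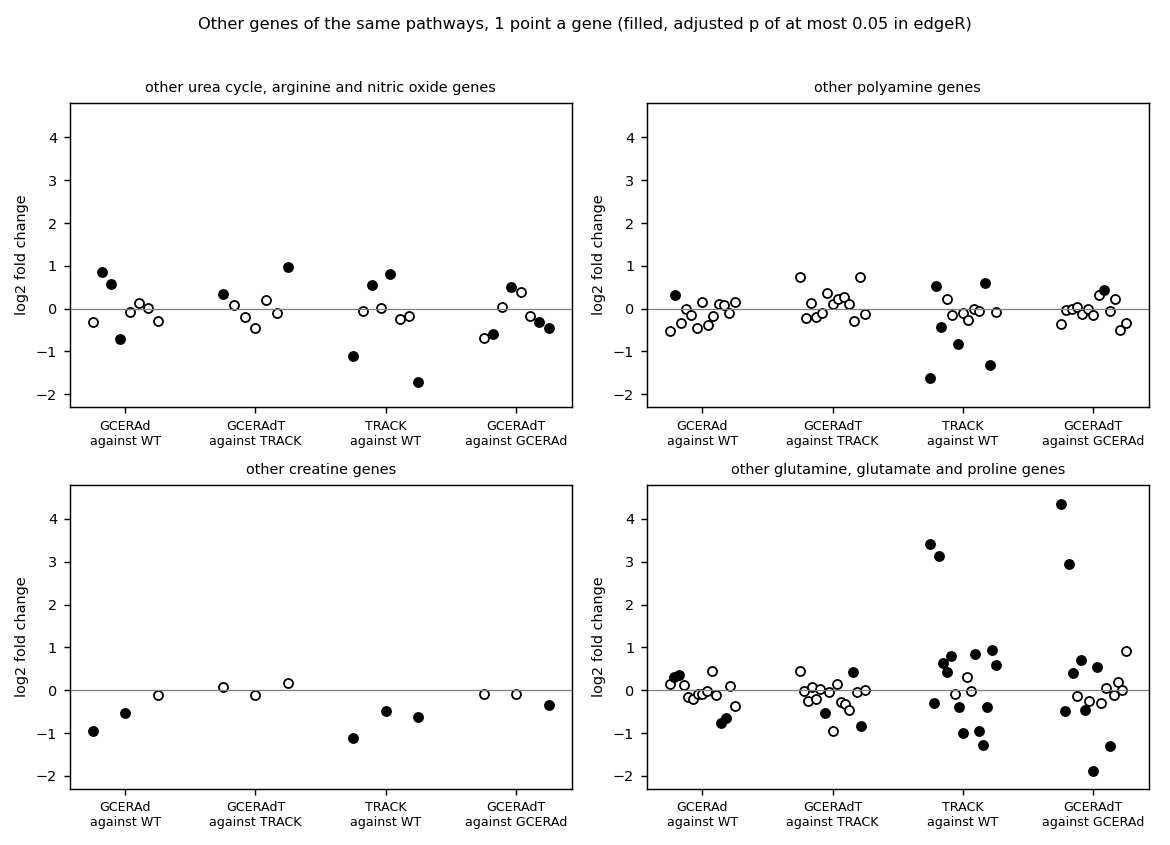
Log2 fold change (y axis) of the tested genes of 4 lists of other pathway genes, 1 point a gene, in the 4 comparisons (x axis). Filled points passed an adjusted p of at most 0.05 in edgeR. Examples are 3 of 8 urea cycle, arginine and nitric oxide genes in GCERAd against WT (27.6% of all genes tested). In TRACK against WT they are 14 of 17 glutamine, glutamate and proline genes (45.6% of all genes tested).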

How the data were processed

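RNA of 17 mouse kidney cortices was sequenced (TruSeq Stranded mRNA). Per the labels and the paper's methods, the authors ran bcl2fastq 2.20, removed adapters with Cutadapt, used STAR for alignment (build GRCm38) and HTSeq for counting, and deposited counts per gene without normalization. The annotation release, strand setting and handling of reads with several matches are not given in the sources used here.

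Groups were taken from the sample labels. Where nothing else is said, the 2 groups compared were fitted alone in R 4.3.3 with edgeR 4.0.16 (TMM scaling, quasi-likelihood test, Benjamini-Hochberg adjustment over all genes tested), with genes of mean FPKM of at least 1 in either group and a threshold of 0.05 on the adjusted p. CPM printed are scaled over all 17 samples. The standard error is the size of the log2 fold change over the square root of F, and intervals (95%) use the t distribution with the test's degrees of freedom. Lengths are merged exons of GENCODE M21, found for 48435 of 48795 rows. 663 rows had no gene name in the table and stayed in the fits by identifier. Gene coordinates are from that annotation and promoters from RefSeq (GRCm38.p6). Motifs other than TGATGNAA were chosen after the promoters had been read. The fits were tested on simulated counts.

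The 9 genes and all lists were chosen with earlier results of these data known. Named genes are all 9, the 3 largest called changes per list in GCERAd against WT and genes without overlap in both GCERAd against WT and GCERAdT against TRACK; Gclc and Slc6a8 were named after their values were seen, and 1 gene that the rule names is not reported here. The labels number the mice in each group. Deviations of same-numbered mice correlated over genes at 0.38 to 0.492 in all 4 pairs of GCERAdT and GCERAd, so the block is given there. No source says what the numbers share, but the 2 libraries of each of these pairs were of the same kind. In the other comparisons none exceeded 0.1, and the lowest was -0.538, for GCERAd 2 with WT 2. Nothing says how mice relate, so p-values measure the spread between these samples. Proteomics and metabolomics were not used here. Alternatives were DESeq2 1.42.0, other scaling, minimums, blocks, library kinds, summed possible repeat libraries (WT 1 with 2, GCERAd 2 with 3, raised by earlier results of these data) and each library left out. The fits by single library kind and without GCERAd 4 and 5 were added after seeing the data.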

Additional observations from a re-analysis of the deposited data

Results flagged for a closer look

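The difference between the effects labelled ATF4 KO on the normal and the TRACK background passed the test for 3 of the 9 genes. This test used all 17 samples (edgeR), and 25.1% of 12208 genes passed it. Y-linked transcripts were absent or nearly so in WT alone, so the sex of the mice cannot be told apart from the group here. For Glul the difference was -1.54 on the log2 scale, with a fall on the TRACK background and no call against WT. For Oat it was 1.24, with a fall against WT and no call on the TRACK background. For Gatm it was 1.49, with a rise on the TRACK background and no call against WT, where GCERAd libraries 1 to 3 and libraries 4 and 5 lay on opposite sides of WT, and this call was lost in 9 of the 17 fits that left out 1 library and with the library kind as a covariate.

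WT 3 stood apart from the other 4 WT cortices in Arg2, at 67.3 CPM where the next highest had 41.2 CPM, a gap of 0.833 of the whole range. It was 1 of 27 combinations of gene and group looked at in this way, of which chance marks about 1 in 20. Arg2 in GCERAd against WT passed the test with and without WT 3.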

How the results depend on the processing

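DESeq2 called 1562 genes in GCERAdT against TRACK where edgeR called 846. With all 17 samples in 1 fit, 1 of the 9 genes (Glul) passed in that comparison (6.8% of all genes), and 6 in GCERAdT against GCERAd (25%), with Arg2 (adjusted p = 0.0238) and Gatm (adjusted p = 0.0452) added. With the mouse number as a replicate block, 2106 genes passed in GCERAd against WT (3198 without it), with Odc1 lost (adjusted p = 0.117), 3431 in TRACK against WT (5458), with Glud1 lost, and 3770 in GCERAdT against GCERAd (2266). The block turned Asl to -0.0044 in GCERAdT against TRACK and Arg2 to -0.061 in TRACK against WT, neither of them called, and changed no other call of the 9 beyond the 2 in the report. With the library kind as a covariate, 462 genes passed in GCERAdT against TRACK and 2776 in TRACK against WT, and uncalled values turned for Asl (-0.057) and Glud1 (-0.14) in GCERAd against WT, for Ass1 in GCERAdT against TRACK (-0.10) and for Glud1 in the difference between effects (0.31). Libraries of kind A alone gave 6 of the 9 genes in GCERAd against WT (27.4% of all genes), with Gatm at 0.32, Asl at -0.087 and Glud1 at -0.50, and 8 in GCERAdT against GCERAd (27.2%). Libraries of kind B alone gave 1 (Oat, with 98 genes in all, Asl at -0.0004 and Glul at 0.048) in GCERAd against WT, 221 genes in GCERAdT against TRACK (Ass1 at -0.10), 1475 in TRACK against WT (with Gamt and Glud1 lost), 2 of the 9 (Ass1 and Glul, with 349 genes in all and Glud1 at -0.24) in GCERAdT against GCERAd, and 452 genes in the difference between effects. Without GCERAd 4 and 5, 7 of the 9 passed in GCERAd against WT (30.9% of all genes), all but Gamt and Asl (with Gatm at 0.37, Asl at -0.14 and Glud1 at -0.51), 8 in GCERAdT against GCERAd (28.3%, all but Oat) and 6 in the difference between effects (23.8%, Glud1 at 0.64). Summing the possible repeat libraries, which leaves fewer samples, turned the uncalled Gamt in GCERAd against WT (-0.0066) and Arg2 in TRACK against WT (-0.015). Leaving out 1 library at a time gave log2 fold changes in GCERAd against WT of -0.32 to 0.076 for Gatm, -0.041 to 0.11 for Asl and -0.061 to 0.38 for Glud1, in GCERAdT against TRACK of -0.0062 to 0.14 for Asl, in TRACK against WT of -0.047 to 0.22 for Arg2 and in the difference between effects of -0.24 to 0.20 for Glud1. The same fits called 379 (without GCERAdT 2) to 1424 (without GCERAdT 4) genes in GCERAdT against TRACK, 1427 (without GCERAdT 2) to 2336 in GCERAdT against GCERAd and 2 to 5 of the 9 genes (5 without GCERAd 5) in the difference between effects. In the same difference between effects, the uncalled Gamt (0.013) turned with DESeq2 (-0.0004), RLE scaling (-0.0003), no minimum level (-0.019), the filterByExpr minimum (-0.0005), the library kind as a covariate (-0.14), kind B alone (-0.13) and without GCERAd 4 and 5 (-0.24), and the uncalled Asl (0.030) turned with no minimum level (-0.0079), the replicate block (-0.025) and repeat libraries summed (-0.043). With 1 library left out that difference was -0.16 to 0.23 for Gamt, -0.064 to 0.13 for Asl and -0.33 to 0.0195 for Ass1. The cause of these shifts was not tested. Among the other values of the 9 genes, called ones kept their direction in every alternative run.

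With 3 to 5 libraries per group and 1 WT library of kind B, values within a library kind are the least certain. All TRACK libraries are of kind B, so kind A has no TRACK value.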

Other observations

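Outside the rule for named genes, and chosen after their values were seen, Aldh18a1 (the first step of proline synthesis from glutamate) and Asns (asparagine synthetase, which uses glutamine) had the largest increases of the 4 pathway lists. Aldh18a1 had 2.54 ± 0.627 CPM in WT (SD, n = 5), 1.78 ± 0.50 CPM in GCERAd (n = 5), 27.2 ± 9.23 CPM in TRACK (n = 3) and 36.9 ± 6.34 CPM in GCERAdT (n = 4). It rose by 3.41 on the log2 scale in TRACK against WT and by 4.35 in GCERAdT against GCERAd. Asns had 2.49 ± 0.743 CPM in WT, 2.34 ± 0.425 CPM in GCERAd, 22.1 ± 5.95 CPM in TRACK and 18.4 ± 4.17 CPM in GCERAdT, and rose by 3.14 and 2.96 in the same comparisons. Neither passed the test in GCERAdT against TRACK (adjusted p = 0.23 for Aldh18a1 and 0.466 for Asns, edgeR).

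Slc7a7, the transporter through which PT cells release arginine to the blood, was 181 ± 20.8 CPM in WT, 147 ± 25.3 CPM in GCERAd, 55.3 ± 13.3 CPM in TRACK and 108 ± 13.5 CPM in GCERAdT. It fell by 1.71 on the log2 scale in TRACK against WT and rose by 0.97 in GCERAdT against TRACK (adjusted p = 0.0089, edgeR). Amd1, which makes the propylamine donor for spermidine and spermine, was 37.2 ± 9.47 CPM in WT and 12.1 ± 1.17 CPM in TRACK and fell by 1.62 on the log2 scale. In fits without GCERAd 4 and 5, Amd1 was -0.17 in GCERAd against WT (adjusted p = 0.648, edgeR). It was -0.69 in GCERAdT against GCERAd (adjusted p = 0.103) and 0.92 in the difference between effects (adjusted p = 0.103). The sex of the mice cannot be told apart from the group in comparisons with WT.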
